A study of Mus musculus with 6 samples.

Results

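The miR-29 family was followed in the miRNA array profiles of Ly6Chigh and Ly6Clow monocytes of the mouse. Its 3 members on the array are the assays named mmu-miR-29a, mmu-miR-29b and mmu-miR-29c, which were taken by the name of the assay, 3 of the 750 miRNA assays measured. The assays that carry a # sign, for the opposite strands of the same hairpins, were kept apart. Monocytes were freshly isolated from 3 DBA/1 mice, with no genetic change or treatment named in the labels, and each mouse gave 1 Ly6Chigh sample (the classical, inflammatory subset) and 1 Ly6Clow sample (the non-classical, patrolling subset), so that 6 samples formed 3 pairs. The age of the mice and the gates that separated the subsets are not given in the sources used here. From each sample, 10 ng of total RNA was reverse transcribed with a pool of stem-loop primers, preamplified and measured on TaqMan low-density arrays.

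MicroRNAs of the miR-29 family guide Argonaute proteins to messenger RNAs that pair with their seed, the bases near the 5′ end of the mature strand, and lower the output of these messengers. The family is best known for targeting collagens and other extracellular matrix genes and the de novo DNA methyltransferases Dnmt3a and Dnmt3b, and in the monocyte lineage it has been linked to the commitment and function of osteoclasts. As the members share a seed, they are held to share most targets, and they differ mainly towards the 3′ end.

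The sequences are shown because all 3 members carry the same seed while the assays have to tell the members apart by the other bases. In the RefSeq annotation of GRCm38.p6, all 3 assay names had a match. The mature strands are printed 5′ to 3′, with the seed (bases 2 to 8) in capitals.
mmu-miR-29a-3p: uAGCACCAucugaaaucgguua
mmu-miR-29b-3p: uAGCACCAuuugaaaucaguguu
mmu-miR-29c-3p: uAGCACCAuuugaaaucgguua

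These 3 were the only ones with that seed among the 1679 mature miRNA names of the table. With positions counted from 1 at the 5′ end, miR-29c differed from miR-29a by a single substitution, C10U, so that 21 of 22 bases were identical. Between miR-29a and miR-29b there were 4 substitutions, C10U, G18A, U21G and A22U, and miR-29b had 1 more base at its 3′ end. How well each assay discriminates against the other members was not tested, and the readings of miR-29a and miR-29c in particular rest on 1 base.

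The 3 mature strands come from 4 hairpins in 2 clusters, and the miR-29b assay reads the product of both clusters. The hairpins are printed 5′ to 3′ with the mature strand in capitals, to show that Mir29b-1 and Mir29b-2 differ outside the mature strand and contain the same 23 bases of miR-29b.
Mir29a: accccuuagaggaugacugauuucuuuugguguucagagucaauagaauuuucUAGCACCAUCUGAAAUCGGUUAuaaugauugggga
Mir29b-1: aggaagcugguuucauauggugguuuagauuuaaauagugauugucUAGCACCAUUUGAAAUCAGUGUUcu
Mir29b-2: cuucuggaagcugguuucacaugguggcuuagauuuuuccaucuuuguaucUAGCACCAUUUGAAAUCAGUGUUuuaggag
Mir29c: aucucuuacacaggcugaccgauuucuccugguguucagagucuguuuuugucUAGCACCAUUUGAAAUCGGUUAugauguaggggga

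In GRCm38.p6, Mir29a lies at chr6:31062660-31062747 and Mir29b-1 at chr6:31063023-31063093, both on the minus strand and 275 bases apart. Mir29b-2 lies at chr1:195037040-195037120 and Mir29c at chr1:195037547-195037634, both on the plus strand and 426 bases apart, within the long non-coding RNA gene A330023F24Rik. No other gene of the annotation overlapped the hairpins of the chromosome 6 cluster.

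Each reaction was read as a threshold cycle (Ct), reached when its fluorescence passes a fixed value. Every further cycle stands for a loss of 1 log2 unit of template, and a Ct of 40 marks a reaction without signal. All 3 members lie on the first of the 2 cards, called card A here, with 375 miRNA assays. Expression was taken as −ΔCt, the Ct of the small nuclear RNA U6 on the same card minus the Ct of the miRNA. This scale is in log2 units and rises with the amount of miRNA relative to U6.

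Before any difference is read, 1 sample has to be set apart. On card A, the Ly6Chigh sample of mouse 1 correlated with the other 5 samples at a Spearman rho of 0.10 to 0.15 across the 127 tested assays, whereas the values among those 5 ran from 0.73 to 0.94 (assays do not count as independent replicates). The myeloid and pan-blood markers miR-223, miR-142-3p and miR-142-5p were all undetected in this sample and detected in the other 5. None of the 3 markers used here for its lineage thus backs its label. All 3 lie on card A, and what their absence says about the cells of this sample was not tested. In the deposited list of card A, the last signal of this sample stood at position 343, and all 41 miRNA assays listed after it were at Ct 40. The other samples had 9 to 17 of these 41 assays detected. The assay of miR-29a is at position 371, in that silent stretch, whereas miR-29b and miR-29c are at positions 38 and 39. Whether the readings listed under miR-29b and miR-29c in this sample belong to those assays was not tested, and neither was its part in the miR-29 values. The comparisons of the members between the subsets are therefore given with and without the sample, and every value of mouse 1 is to be read with this limit.

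**Figure D1:**
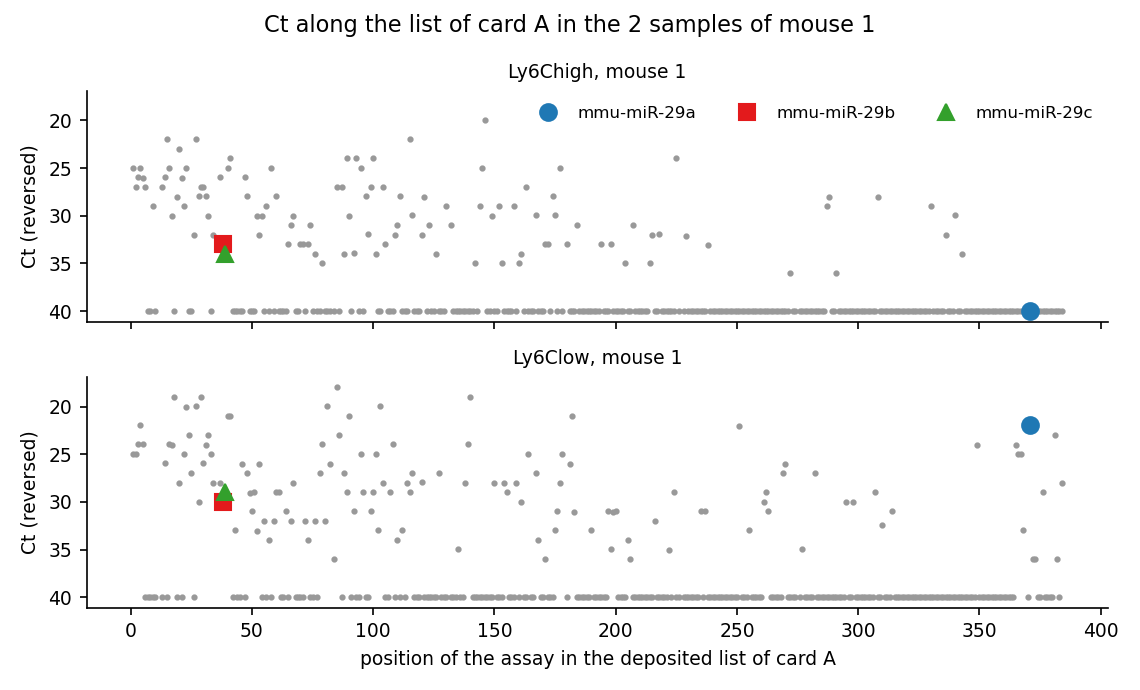
Ct of the 375 miRNA assays of card A (vertical axis, reversed so that more template is higher) by their position in the deposited list (horizontal axis) for the Ly6Chigh sample (top) and the Ly6Clow sample (bottom) of mouse 1. Grey points are assays, coloured symbols are the miR-29 members, and points at 40 are undetected. No assay after position 343 had a signal in the Ly6Chigh sample, miR-29a at position 371 included, while miR-29a had a Ct of 21.94 in the Ly6Clow sample.

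Across the other marker lists, 2 of 4 lymphocyte markers were detected in the Ly6Chigh sample of mouse 1 and all 4 in the other 5 samples. The summed level of this list was −2.28, 0.93 and −2.19 log2 units relative to U6 in the Ly6Chigh samples of mice 1, 2 and 3 and −0.13, 0.82 and −0.97 in the Ly6Clow samples. Of its members, miR-342-3p differed between the subsets by −6.45 (−1.60 without the Ly6Chigh sample of mouse 1) and miR-150 by −2.47 (−0.62), while miR-181a and miR-155 were at 1.03 and 1.89 without that sample. Of the erythroid markers, miR-451 was detected in the other 5 samples at −11.19 and −8.31 log2 units relative to U6 in Ly6Chigh monocytes and −11.14 to −10.20 in Ly6Clow monocytes, while miR-144 and miR-486 were undetected in all 6. The liver marker miR-122 was detected in 3 samples, and of the muscle markers miR-1 and miR-133a were detected in 1 sample, the Ly6Chigh sample of mouse 3. Of the epithelial markers, miR-205 was undetected in all 6, whereas miR-200c was detected in all 6. The marker miR-141 was detected in every Ly6Clow sample and, of the Ly6Chigh samples, in that of mouse 3 only. Between the subsets miR-141 differed by −3.14 (−1.62 without the Ly6Chigh sample of mouse 1) and miR-200c by 0.51 (0.84). Of 2 platelet and endothelial markers, 1 or 2 were detected in each sample except the Ly6Chigh sample of mouse 1, which had none. The part of such cells in the miR-29 values was not tested. In a bulk sample, fewer cells of a type and less RNA per cell cannot be told apart.

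The raw Ct of miR-29a was 40 (undetected), 26.96 and 23.94 in the Ly6Chigh samples of mice 1, 2 and 3. In the Ly6Clow samples it was 21.94, 21.95 and 23.94. Detected reactions thus lay between 21.94 and 26.96, and in mouse 3 the Ct of the Ly6Chigh sample minus that of the Ly6Clow sample was −0.0078 cycles.

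For miR-29b, the Ct was 32.99, 33.98 and 30.98 in the Ly6Chigh samples and 29.97, 30.97 and 30.98 in the Ly6Clow samples. For miR-29c, it was 33.99, 32.99 and 30.97 in the Ly6Chigh samples and 28.99, 28.98 and 29.98 in the Ly6Clow samples. Both were late in every sample, with mouse 3 again showing the smallest difference in Ct between its subsets. Of the 18 member reactions, 17 gave a signal, and each of these lay within 0.07 cycles of a whole number, so that differences are read in steps of about 1 cycle.

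U6 on card A had a Ct of 22.66, 24.66 and 20.77 in the Ly6Chigh samples and of 19.80, 20.76 and 21.92 in the Ly6Clow samples. It was therefore later in Ly6Chigh monocytes by 2.86 and 3.89 cycles in mice 1 and 2 and earlier by 1.15 cycles in mouse 3. This reference moved by more than most of the miR-29 differences described below, which is why comparisons that do not use it are also given.

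**Figure D2:**
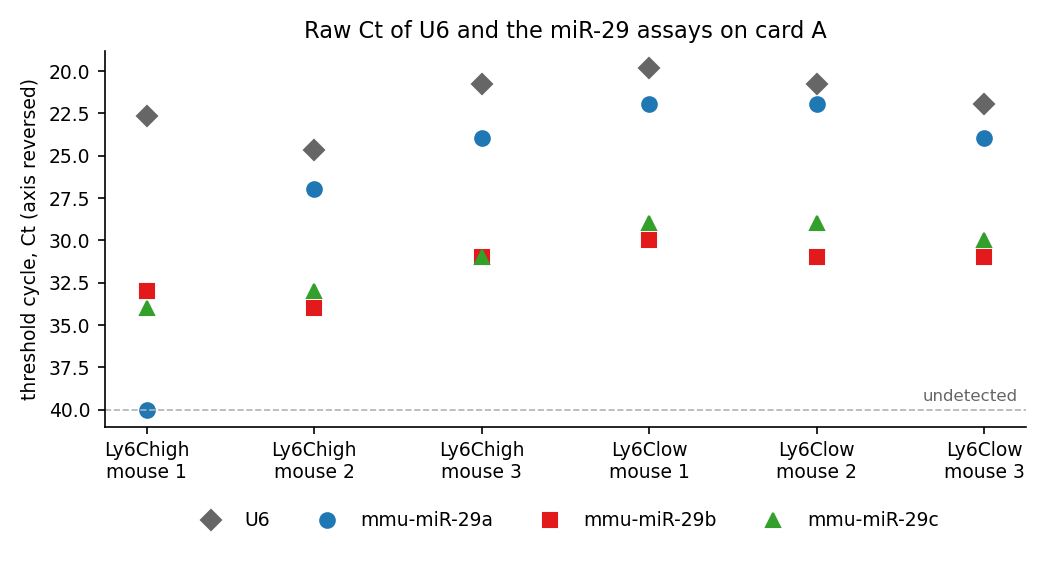
Raw Ct (vertical axis, reversed) of U6 and the 3 miR-29 assays on card A in each of the 6 samples (horizontal axis), 1 reading per assay and sample, with the dashed line at Ct 40 for undetected reactions. U6 ranged from 19.80 to 24.66, and miR-29a was the earliest of the 3 members in every sample except the Ly6Chigh sample of mouse 1.

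Among the assays detected on card A, miR-29a ranked between 10 and 19 by Ct in the 5 samples that detected it, of 118 to 151 detected assays per sample. In the same 5 samples, miR-29b ranked between 80 and 107 and miR-29c between 70 and 97. The Ct of different assays also depends on the efficiency of each assay, so these ranks describe the readings and not copies per cell.

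Relative to U6, the expression of miR-29a was −17.34, −2.31 and −3.16 log2 units in the Ly6Chigh samples of mice 1, 2 and 3. It was −2.13, −1.19 and −2.02 in the Ly6Clow samples. All Ly6Chigh values lay below all Ly6Clow values, but the gap between the nearest of them was 0.17, well under a step of 1 cycle. The means were −7.60 ± 8.44 (SD, n = 3) in Ly6Chigh and −1.78 ± 0.52 (SD, n = 3) in Ly6Clow monocytes, the first of which is governed by the undetected reaction.

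Between the subsets, miR-29a differed by −5.82 (standard error 4.22, limma adjusted p = 0.985), and the 2-sided exact permutation p was 0.1, the lowest that 3 samples against 3 can give. Leaving out the Ly6Chigh sample of mouse 1 gave −0.95 (standard error 0.86, limma adjusted p = 0.997), and the exact permutation p was 0.1, again the lowest possible. Of the 201 assays tested, 5 (2.49%) had all Ly6Chigh values below all Ly6Clow values, miR-29a among them. With the Ly6Chigh samples of mice 2 and 3 only, 7 of 201 (3.48%) did, and miR-29a was again one of them.

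Within mice 2 and 3, in which both reactions of miR-29a had a signal, expression relative to U6 was lower in Ly6Chigh monocytes by similar amounts. The differences were −1.12 and −1.14 log2 units, which correspond to about 2.2-fold lower levels in each. In raw Ct, Ly6Chigh minus Ly6Clow was 5.01 for miR-29a and 3.89 for U6 in mouse 2. In mouse 3 it was −0.0078 for miR-29a and −1.15 for U6, so the raw Ct of miR-29a was level there and the value of −1.14 appears on subtracting U6. Against the other assays of card A, a comparison given below that does not depend on U6, miR-29a lay 1.97 log2 units below the median in mouse 3. The part of U6 in the difference was not tested. As the readings lie in steps of about 1 cycle, the closeness of the 2 differences, and the standard error resting on it, are finer than the readings allow. With mouse 1 left out and mouse fitted as a block, miR-29a differed by −1.13 (standard error 0.22, limma adjusted p = 0.443), so it did not pass the threshold across all assays. In mouse 1, the difference of −15.20 is set by the Ct of 40 that marks an undetected reaction, and no fold is given.

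The expression of miR-29b relative to U6 was −10.32, −9.32 and −10.21 in the Ly6Chigh samples and −10.17, −10.21 and −9.06 in the Ly6Clow samples. The ranges of the subsets overlapped, with means of −9.95 ± 0.55 (SD, n = 3) and −9.81 ± 0.65 (SD, n = 3). Between the subsets, miR-29b differed by −0.14 (standard error 1.39, limma adjusted p = 0.985), with an exact permutation p of 0.5. Within mice it was −0.16, 0.88 and −1.15, lower in Ly6Chigh monocytes in 2 mice and higher in 1. With the Ly6Chigh sample of mouse 1 left out it was 0.044 (standard error 0.89, limma adjusted p = 0.997, exact permutation p = 1).

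The expression of miR-29c relative to U6 was −11.32, −8.33 and −10.19 in the Ly6Chigh samples and −9.19, −8.22 and −8.06 in the Ly6Clow samples. In Ly6Chigh monocytes, mice 1 and 3 were lower than every Ly6Clow sample, and mouse 2 lay among the Ly6Clow samples. The means were −9.95 ± 1.51 (SD, n = 3) and −8.49 ± 0.61 (SD, n = 3), with a difference of −1.46 (standard error 1.54, limma adjusted p = 0.985) and an exact permutation p of 0.2. Leaving out the Ly6Chigh sample of mouse 1 gave −0.77 (standard error 1.02, limma adjusted p = 0.997, exact permutation p = 0.5). Within mice, miR-29c differed by −2.14, −0.11 and −2.13, so the difference of mouse 2 was far smaller than a step of 1 cycle.

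**Figure D3:**
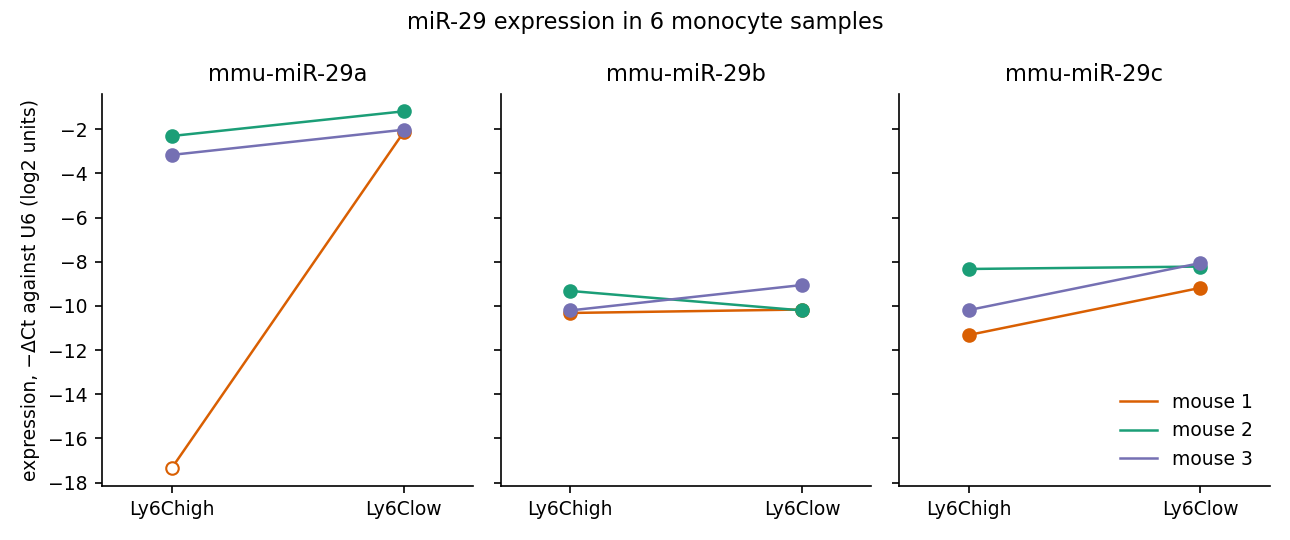
Expression of miR-29a, miR-29b and miR-29c as −ΔCt against U6 (log2 units, vertical axis) in Ly6Chigh and Ly6Clow samples, 1 point per sample, with lines joining the samples of a mouse and an open point for the undetected reaction. The lines of miR-29a rise towards Ly6Clow in all 3 mice, by 1.12 and 1.14 in mice 2 and 3, whereas those of miR-29b cross.

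None of the 3 members was called, nor was any of the 201 tested assays (0% called, with limma and an adjusted p of at most 0.05). At an unadjusted limma p under 0.05, 2 of 201 assays (0.995%) passed, and 4 of 201 (1.99%) did without the Ly6Chigh sample of mouse 1, with no member among them in either fit. The median difference over all 201 tested assays was −0.45, and over the 127 of card A it was −1.14. Without the Ly6Chigh sample of mouse 1, these medians were 0.63 and 0.89, so the members' differences of −0.95, 0.044 and −0.77 then lay below the middle of the card. With a signal in at least 1 of the 2 samples of each mouse, 142 assays could be compared within all 3 mice. Of these, 21 (14.8%) were lower in Ly6Chigh monocytes in all 3, which miR-29a and miR-29c also were and miR-29b was not. An undetected reaction counts here at its Ct of 40, as the Ly6Chigh reaction of miR-29a in mouse 1 does. By the same rule, 28 of 148 assays (18.9%) were lower in both mice 2 and 3, miR-29a and miR-29c included.

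As the shift of U6 acts on all assays of a card alike, each member was also set against the other assays of card A that had a signal in both samples of the mouse. In mouse 2, the median difference of 103 such assays was 0.88, and miR-29a lay 2.00 log2 units below it. In mouse 3, the median of 112 assays was 0.83, and miR-29a lay 1.97 below it. Only 3.88% of the assays in mouse 2 and 9.82% in mouse 3 had a lower difference than miR-29a.

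Set against the same medians, miR-29c lay 0.99 below in mouse 2 and 2.96 below in mouse 3, where 2.68% of the assays were lower still. The difference of miR-29b was −0.0017 from the median in mouse 2 and 1.98 below it in mouse 3. In mouse 1, where 50 assays had a signal in both samples and the Ly6Chigh sample stands apart, miR-29b lay 0.99 and miR-29c 2.97 below the median of 0.83. Every member with a signal in both samples thus lay below the middle of the card in mice 1 and 3, and in mouse 2 miR-29a and miR-29c did. These positions are descriptions of single mice and carry no test.

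**Figure D4:**
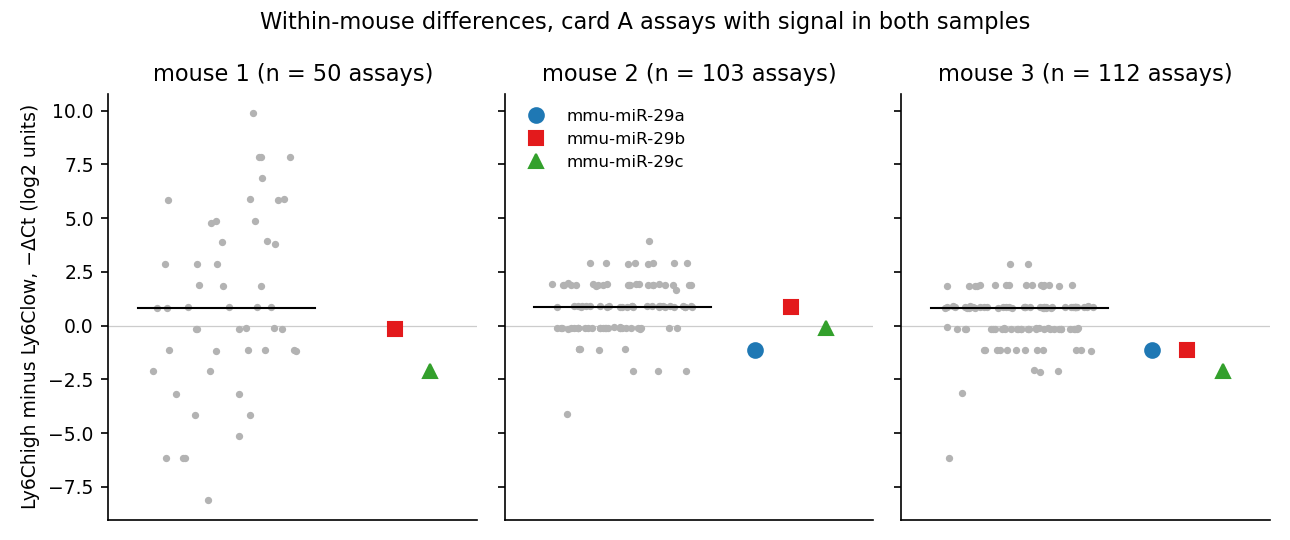
Difference between the Ly6Chigh and Ly6Clow samples of each mouse in −ΔCt against U6 (log2 units, vertical axis) for the tested card A assays with a signal in both samples (grey points, spread sideways at random), with the black line at their median and coloured symbols for the miR-29 members. In mice 2 and 3 miR-29a lies 2.00 and 1.97 below the median, and it is missing in mouse 1, where its Ly6Chigh reaction had no signal.

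The balance among the members does not depend on U6, because all 3 were read on the same card of the same sample. It was taken as the difference in Ct between a pair of members, on the log2 scale. A constant offset in Ct between 2 assays drops out when the subsets are compared. An effect of assay efficiency that varies with the amount of template would not drop out, and it was not tested. The 3 pairs were compared between the subsets by 2-sided exact permutation over the 6 samples, with adjustment over the 3 pairs. This test does not use the pairing by mouse, and sign flips of the 3 within-mouse differences, added after the data were seen, cannot give a p under 0.25.

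The level of miR-29b minus that of miR-29c was 1.00, −0.99 and −0.014 in the Ly6Chigh samples of mice 1, 2 and 3 and −0.98, −1.99 and −0.99 in the Ly6Clow samples. Relative to miR-29b, miR-29c was thus lower in Ly6Chigh monocytes in 3 of 3 mice, by 1.98, 0.99 and 0.98, although the values of the subsets overlapped between mice. The difference of the means was 1.32 (exact permutation p = 0.2, adjusted p = 0.3), and the exact sign flips within mice gave p = 0.25, the lowest possible (adjusted p = 0.5). Without the Ly6Chigh sample of mouse 1 it was 0.82 (exact permutation p = 0.4, adjusted p = 0.6).

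The level of miR-29a minus that of miR-29b was −7.01, 7.02 and 7.05 in the Ly6Chigh samples and 8.03, 9.02 and 7.03 in the Ly6Clow samples. Apart from the undetected reaction, the pair kept to between 7.02 and 9.02, with the Ly6Chigh sample below the Ly6Clow sample in mouse 2 and a difference of 0.012 in mouse 3. The difference of the means was −5.68 (exact permutation p = 0.2, adjusted p = 0.3) and without the Ly6Chigh sample of mouse 1 it was −0.996 (exact permutation p = 0.3, adjusted p = 0.6).

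The level of miR-29a minus that of miR-29c was −6.01, 6.02 and 7.03 in the Ly6Chigh samples and 7.05, 7.03 and 6.04 in the Ly6Clow samples. Among the 5 samples that detected both, it stayed between 6.02 and 7.05, a range of about 1 cycle, and mice 2 and 3 went opposite ways, by −1.01 and 0.99. The difference of the means was −4.36 (exact permutation p = 0.3, adjusted p = 0.3), and without the Ly6Chigh sample of mouse 1 it was −0.18 (exact permutation p = 0.6, adjusted p = 0.6).

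The assays for the opposite strands of the miR-29 hairpins gave little signal. How well those named for human (hsa) or rat (rno) match the mouse strands was not tested. Of 5 opposite-strand assays, all on card B, for which the labels name no primer pool, hsa-miR-29a#, mmu-miR-29b#, hsa-miR-29b-2# and rno-miR-29c# were at Ct 40 in all 6 samples. The assay rno-miR-29b-1# read 36.00 in the Ly6Chigh sample of mouse 3 and 33.98 and 32.98 in the Ly6Clow samples of mice 2 and 3, and 40 in the other 3. On card B of the Ly6Clow sample of mouse 2, the plant control ath-miR159a, which should have no template in mouse RNA, read 33.97, so that the reading of rno-miR-29b-1# in that sample was no earlier than a control. No opposite-strand assay met the filter for testing, and all 3 member assays did.

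Other miRNAs that are known to act on DNA methyltransferases, miR-148a, miR-148b and miR-152, share a seed with each other and not with miR-29. Together with the 3 members, 6 of 6 assays of this list were tested, 4 had lower and 2 higher values in Ly6Chigh monocytes, and 0 passed the threshold. The median difference of the 6 was −0.14. In the fit that left out the Ly6Chigh sample of mouse 1, 2 had lower and 4 higher values, with a median of 0.55 against 0.63 over all tested assays. Those with lower values were miR-29a and miR-29c. In that setting miR-148a differed by 2.06 (standard error 0.86), miR-152 by 1.73 (standard error 0.88) and miR-148b by 1.05 (standard error 0.86), none of which passed after adjustment.

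Of 11 miRNAs known from osteoclast and macrophage differentiation, 7 were tested, all on card A, and 0 passed the adjusted threshold. All 7 had lower values in Ly6Chigh monocytes, with a median of −1.15 against −1.14 over the tested assays of card A. Without the Ly6Chigh sample of mouse 1, 2 had lower and 5 higher values, and the median was 0.22 against 0.89 over the tested assays of card A. The pair with lower values was miR-146a, a brake on inflammatory signalling, at −4.96 (standard error 1.93), and miR-21, a regulator of cell survival, at −0.76 (standard error 0.84). In the same setting miR-26a was at 0.22 (standard error 1.17) and the myeloid miR-223 at 1.39 (standard error 1.06). The direction of the list as a whole thus turned with 1 sample, as did the median of all tested assays.

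The miRNAs of card A whose expression was most like that of miR-29a over the 6 samples were miR-24 (Pearson r = 0.99), miR-140 (0.98), miR-186 (0.97), miR-26b (0.92) and miR-103 (0.91), out of 40 assays with a Ct under 35 in all 6. These 6 points share the U6 reference. Over the 5 samples other than the Ly6Chigh sample of mouse 1, r was 0.62, 0.65, 0.33, 0.65 and −0.14 for the same 5 assays. In those samples miR-146a (0.96), miR-342-3p (0.93), miR-29c (0.79), miR-150 (0.68) and miR-21 (0.67) came first among 85 assays. Of these, miR-342-3p and miR-150 are on the lymphocyte list, and miR-146a and miR-21 on the osteoclast and macrophage list. The other lymphocyte markers, miR-181a and miR-155, were not among these 5. Their differences between the subsets in those samples were 1.03 and 1.89. Of the members, miR-29c followed miR-29a at r = 0.79 over the 5 samples, whereas miR-29b had an r of 0.023 with it. On raw Ct, without U6, the same 5 samples gave 0.98 for miR-29c and 0.92 for miR-29b, so the contrast between them depends on the scaling. Raw Ct keeps any shift common to the assays of a sample, so these 2 values do not show that either member follows miR-29a in particular.

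The direction of the miR-29a difference was the same under all 25 alternative settings that gave a value, and it ranged from −8.47 to −0.95, the latter relative to U6 and with the undetected reaction or its sample left out. This count is no measure of robustness. The filters that kept miR-29a, the mouse block and the other variance models left the estimate at −5.82, so they could not turn its sign. Many of the other settings kept the undetected reaction. With the mean of the assays under Ct 35 in all samples as the reference in place of U6, and without the Ly6Chigh sample of mouse 1, miR-29a differed by −1.61 (standard error 0.44), miR-29c by −1.43 (standard error 0.60) and miR-29b by −0.61 (standard error 0.77). The limma adjusted p was 0.716 for miR-29a in that setting, which was added after the data were seen. For miR-29b, the sign was positive under 5 of 26 alternatives, and for miR-29c under 1 of 26, quantile normalization.

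**Figure D5:**
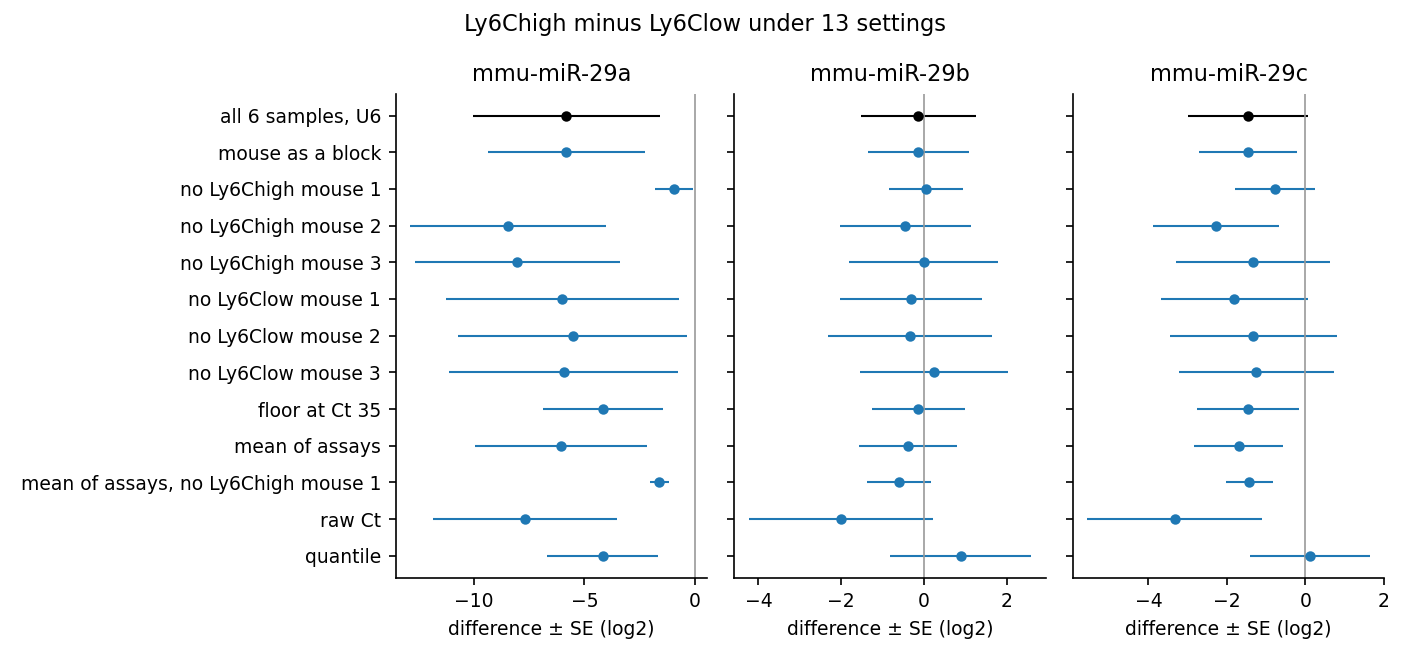
Difference between Ly6Chigh and Ly6Clow monocytes on the log2 scale (horizontal axis) for each member under 13 settings (vertical axis), with points for the estimates and bars for ± 1 standard error from limma. The horizontal axes differ between panels. The estimates of miR-29a stay below 0 and among these 13 settings come closest to it, at −0.95, without the Ly6Chigh sample of mouse 1, while those of miR-29b lie on both sides of 0.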

How the data were processed

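The members and miRNA lists were chosen with earlier results of these data known. The authors deposited raw Ct values, in log2 units of reversed sign with undetected reactions at 40, and ΔCt values on the same log2 scale, from which the U6 Ct of the same sample and card had been subtracted (checked, with a difference of 0.011 on card B of the Ly6Clow sample of mouse 1). A further deposited table holds the authors' own ratios between the subsets within each mouse and was not used. How Ct values were called is not given in the sources used here. The number of arrays and steps of about 1 cycle limit the precision.

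Of 768 wells, 18 held controls. Tests were run on assays under Ct 35 in 3 or more samples (201 of 750). Subsets were compared on −ΔCt with limma 3.58.1 (lmFit, eBayes) in R 4.3.3, unblocked, with Benjamini-Hochberg adjustment over the 201 assays and a threshold of 0.05. Single values and member pairs were compared by exact permutation in Python 3.11.15 (numpy 2.4.6, pandas 2.3.3, scipy 1.17.1, matplotlib 3.10.9). The limma steps were run on simulated data with even noise and no undetected reactions. That checked the code only and does not bear on the calls in these data.

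By the labels, samples that share a number share a mouse. Their deviations from the subset means correlated at 0.32, 0.62 and 0.72 over the 201 assays in mice 1, 2 and 3.

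Named were the 3 members, their opposite strands, U6, the 5 assays of card A most correlated with miR-29a, up to 4 examples of each of 2 lists (DNA methyltransferase-directed, and osteoclast and macrophage differentiation), and markers of myeloid, erythroid, platelet and endothelial, lymphocyte, muscle, liver and epithelial cells. Sequences and positions are those of RefSeq on GRCm38.p6, as the deposited values name no genome build. There were 23 alternatives in all besides 3 fits, the sign flips within mice and the correlations over 5 samples, which were added after the data were seen.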

Additional observations from a re-analysis of the deposited data

How the results depend on the processing

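No member and no assay was called under any of the 26 alternatives. At an unadjusted limma p under 0.05 there were 1 to 16 assays (4 with an ordinary linear model), with 59 to 750 tested by setting. The 16, of 201 tested, came with mouse 1 left out and mouse as a block. In that fit the limma adjusted p of miR-29a, 0.443, was the lowest value. With the mouse as a replicate block, the differences remained −5.82, −0.14 and −1.46 for miR-29a, miR-29b and miR-29c (standard errors 3.55, 1.22 and 1.24), and the block changed no call. When each sample or mouse was left out in turn, miR-29a ranged from −8.47 to −0.95, miR-29b from −0.65 to 0.36 and miR-29c from −2.27 to −0.77, with the smallest difference of miR-29a and miR-29c without the Ly6Chigh sample of mouse 1. For miR-29b, the sign turned to positive at 0.044 with card A of that sample as missing, at 0.044 without the sample, at 0.23 without the Ly6Clow sample of mouse 3, at 0.36 without mouse 3 and at 0.89 under quantile normalization. Quantile normalization also gave miR-29c a value of 0.12. The cause was not tested. With a Ct under 35 required in all 6 samples, miR-29a has no value. The pairs of members kept their sign under all 13 alternatives each, but miR-29a minus miR-29c was −0.0074 without mouse 1, far under a step of 1 cycle. Among these alternatives, the sign flips within mice keep the main difference by construction. With the pairing by mouse, sign flips gave p = 0.5, 0.5 and 0.25 for miR-29a minus miR-29b, miR-29a minus miR-29c and miR-29b minus miR-29c (exact test). With mean or median reference, floor at Ct 35 and no normalization, miR-29a stayed between −7.69 and −4.15, all with the undetected reaction included. Without the Ly6Chigh sample of mouse 1, it was −1.61 with the mean reference, −1.69 with the median reference and −2.84 with no normalization. The reference assays were still chosen by their Ct in all 6 samples.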
